A study of Mus musculus with 37 samples.

Results

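The proteasome genes described here are the rows of the expression table whose symbol starts with Psma, Psmb, Psmc, Psmd, Psme, Psmf or Psmg followed by a digit. The pattern took 50 of the 23947 genes in the table. Of these, 14 encode the constitutive core, 2 are core genes of other tissues, 3 encode the immunoproteasome subunits, 17 encode the cap, 3 encode cap assembly chaperones, 5 encode activators, 1 encodes the regulator PI31 and 4 encode core assembly chaperones. Psmc3ip also fits the pattern but is not a proteasome gene. It encodes a partner of meiotic recombinases, was listed at 0 in every cell and is left out of what follows, so the account is of 49 genes.

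The study sequenced 37 single cells labelled as adipose tissue macrophages, taken from the epididymal white fat of male C57BL/6J mice fed a high-fat diet with 60% of its energy as fat. The tissue was digested for 30 min with collagenase D or IV, and the cells were sorted, captured on a Fluidigm C1 microfluidic chip and made into Nextera XT libraries from polyadenylated RNA. All 37 cells carry the same labels, age is given only as matched, and neither an animal for each cell nor the sort gate is given in the sources used here. The cells therefore count as 1 sample, no test was made between cells, and all values describe these 37 cells, which are called by their label numbers, 0 to 36.

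The proteasome is the barrel-shaped protease that degrades ubiquitin-tagged proteins in the cytosol and nucleus. Its core is built of stacked rings of alpha subunits, which gate the entrance, and beta subunits, some of which cut the chain, while the cap recognises, unfolds and feeds in the substrate and the activators open the gate without using ubiquitin. In immune cells, and in others exposed to interferon gamma, the cutting subunits can be replaced by the immunoproteasome subunits, which changes the peptides made for display on MHC class I molecules.

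The cells carried macrophage transcripts throughout. Of the 14 macrophage markers in the table, 8 to 13 were detected per cell, with a median of 12, where detected means at least 1 FPKM (fragments mapped to a gene, corrected for the length of its transcripts and for library size). Cells 7 and 27 also held 7 of 8 fibroblast genes each, with the collagen-binding proteoglycan gene Dcn at 2582 and 6654 FPKM, and no other cell held 3 or more genes of another cell type. Cells detected 1224 to 3204 genes (median 1824), and cells 7 and 27 had the most. The FPKM of a cell summed to between 225528 and 1841670 (median 326230). The table holds no fragment counts. From its lowest values, the FPKM that 1 fragment is worth was estimated to span 100-fold between cells, and in 6 cells (2, 7, 15, 17, 24 and 26) it was over 4 times the median. By this estimate the limit of 1 FPKM stands for different numbers of fragments in different cells. Fewer fragments are enough for detection where each is worth more.

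Most proteasome genes were detected in some cells and were listed at 0 or below 1 FPKM in the others, which in a table without counts does not show that they were absent there. Of the 50 genes taken by the pattern, 47 were detected in at least 1 cell and 40 in at least 5 cells, against 41.7% and 19.6% of all genes in the table. A gene was called widely detected when it reached 1 FPKM in at least 19 of the 37 cells, and 10 proteasome genes did so: Psma1, Psma2, Psma3, Psma4, Psma7, Psmb1, Psmb3, Psmb6, Psmc1 and Psme1. This is 20.0% of the 50, against 4.03% of all genes in the table and 8.33% of the genes above 0 in any cell. Counted only over genes detected in at least 5 cells, it is 25.0% of 40 against 20.6% of 4694, so among such genes the proteasome list stood close to the rest. Without cells 7 and 27, and likewise without the 6 cells of high fragment worth, 11 genes were widely detected. The count depends on the limit of detection, and it was 26 at 0.1 FPKM, 6 at 5 FPKM and 30 for any value above 0. The share over all genes was not computed at these other limits, so these counts cannot be set against the table as a whole.

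**Figure D1:**
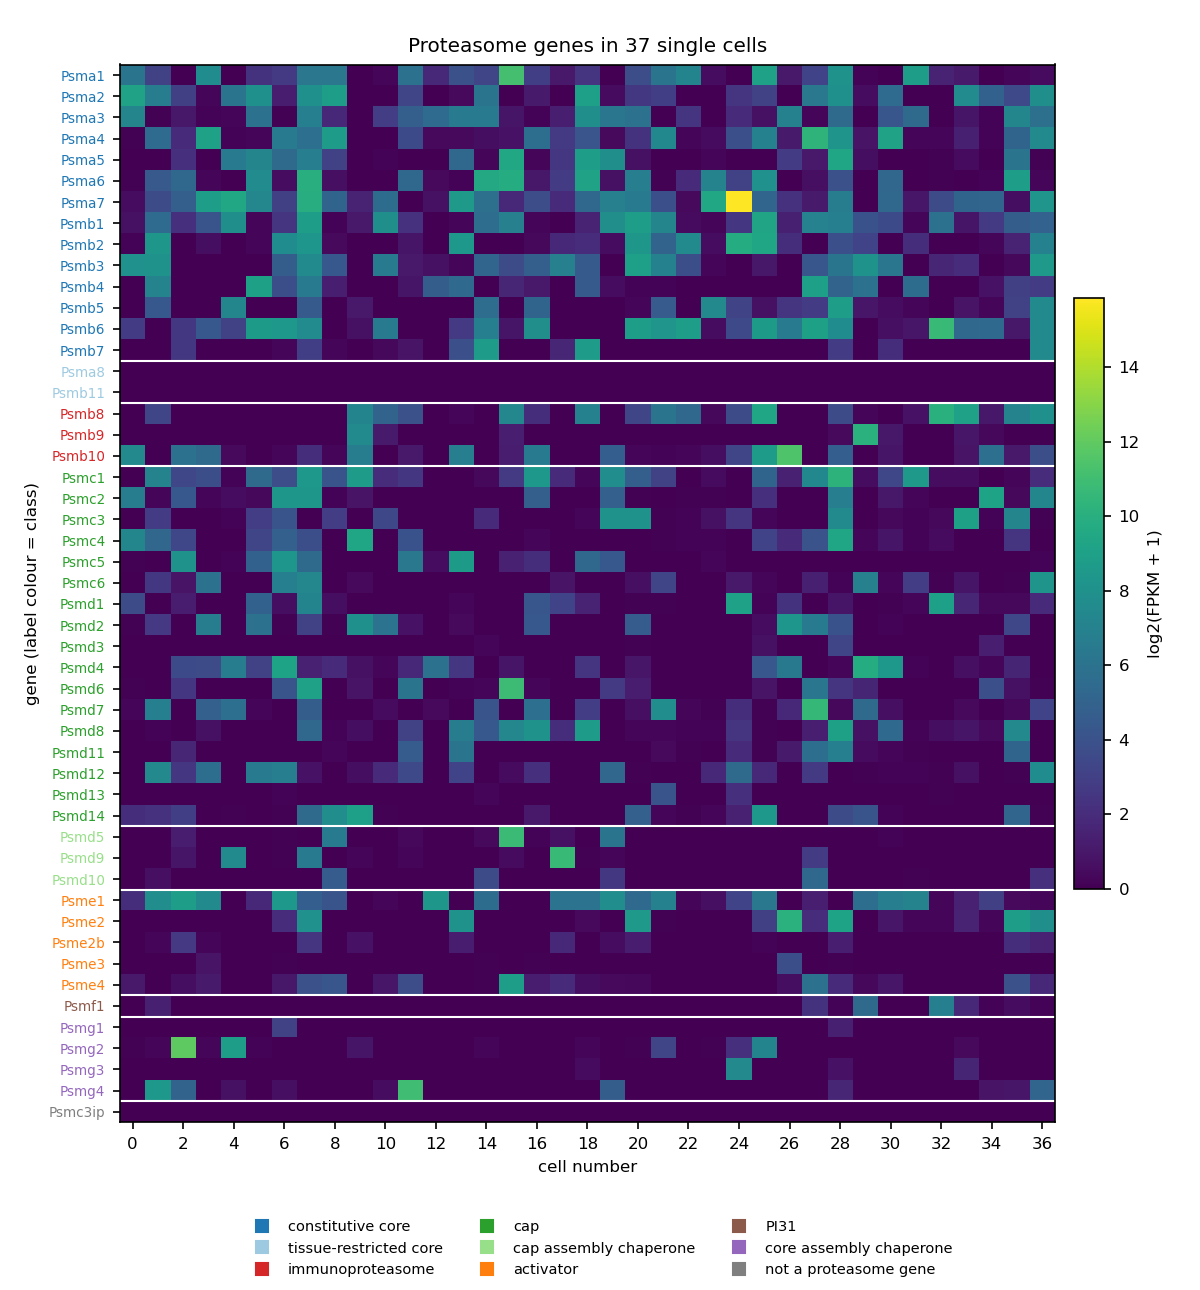
Level of each gene taken by the pattern (rows, label colour gives the class) in each of the 37 cells (columns, by label number), as log2(FPKM + 1) on the colour scale. The 14 constitutive core genes at the top are filled more densely than the 17 cap genes, and the brightest field is Psma7 in cell 24.

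The constitutive core was the most completely detected class. Over its 14 genes and 37 cells, 54.2% of 518 values reached 1 FPKM, 25.1% were listed at 0 and 19.9% were at 100 FPKM or more. The share was 59.1% for the alpha ring and 49.4% for the beta ring. Over the genes detected in at least 5 cells it was 34.7%, so core genes were found in a larger share of cells than such genes as a whole. This was not particular to the core. In 2 other complexes the share was 43.6% for the 8 genes of the chaperonin CCT and 57.1% for the lysosomal proton pump V-ATPase. The latter was counted over its 15 genes detected in at least 5 cells. The values of single core genes nonetheless ran from 0 to 233 FPKM or more in every case.

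Among the alpha subunits, Psma7 was detected in the most cells, 30 of 37 (81.1%, exact 95% interval 64.8% to 92%). Its lowest value was 0, its median 32.8 FPKM and its highest 58961 FPKM, in cell 24. That value was 62.4 times the next highest, 945 FPKM in cell 7, and it was at rank 4 among all genes of cell 24, where it took 3.20% of the FPKM sum. The mean of Psma7 over all cells was 1713 FPKM with cell 24 and 123 FPKM without it, while the median was 30.0 FPKM without it. Cell 24 also had the highest FPKM sum and the highest fragment worth, 26 times the median, and 37 of its genes exceeded 10000 FPKM; the part of these in the Psma7 value was not tested. The other core genes were not raised alike in that cell, since the highest of them, Psmb2, stood at 902 FPKM.

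The other alpha genes were detected in 15 to 25 cells. Psma1 was found in 25 cells, with a median of 4.30 FPKM and a highest value of 2344 FPKM in cell 15. Psma2 was found in 23 cells (median 6.53 FPKM, highest 564 FPKM in cell 0). Psma3 and Psma4 were each found in 21 cells. Their medians were 2.93 and 2.90 FPKM, and their highest values 233 FPKM in cell 18 and 1289 FPKM in cell 27. Psma6 and Psma5 came last, in 18 and 15 cells, and their medians of 0.619 and 0.222 FPKM lay under the detection limit although cell 7 held Psma6 at 960 FPKM and cell 15 held Psma5 at 694 FPKM. The alpha subunits assemble into a ring that holds 1 copy of each, yet the cells detecting them differed from gene to gene, and only cells 7, 18 and 28 detected all 7. Cell 29 detected none of the 7, while 4 of its 7 beta genes were detected.

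The noncatalytic beta subunits Psmb1, Psmb2, Psmb3 and Psmb4 complete the beta ring without cutting substrate. Psmb1 was detected in 26 cells and had a median of 5.38 FPKM, with the highest value, 607 FPKM, in cell 25. Psmb3 was detected in 22 cells, with 11.5 FPKM as its median and 483 FPKM, in cell 20, as its maximum. Psmb2 and Psmb4 were detected in 17 and 16 cells with medians of only 0.494 and 0.446 FPKM, against highest values of 902 FPKM (cell 24) and 504 FPKM (cell 5). In the order of the medians Psma7 led, followed by Psmb3, Psmb6, Psma2, Psmb1 and Psma1. The interquartile range of Psma7, 2.42 to 102 FPKM, contained the medians of the other 7 widely detected core genes, 11.5 to 2.90 FPKM, so neighbours in that order did not differ beyond their spread.

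Core genes of other tissues were not detected. Psma8, the alpha subunit of the testis, was listed at 0 in all 37 cells, and Psmb11, the beta subunit of the thymic cortex, did not exceed 0.0148 FPKM. Taking 3 cells as the limit that a count of 0 allows, up to 8.11% of cells could have reached 1 FPKM, and the exact 95% upper limit is 9.49%; neither limits expression below what these libraries detect.

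Within a cell the core genes were far from equal. Between the highest and the lowest detected core gene of a cell the fold was 1.70 to 20146, with a median of 106 over the 37 cells. The highest core gene was Psmb6 in 6 cells, Psma6 in 5, Psma7 in 5 and Psmb3 in 4, and the rest of the cells were shared by 8 other genes. When the variance of log2(FPKM + 1) of the 14 genes was divided, 7.51% lay between genes, 19.9% between cells and 72.6% in neither. The same division of the 7 MHC class II genes, another list expressed by these cells, gave 59.9%, 21.6% and 18.5%. Those 7 genes include Ciita, detected in 5 cells, beside Cd74, detected in 37. For the 8 genes of the chaperonin CCT, also a complex that needs every subunit, it gave 6.93%, 20.4% and 72.6%, close to the core. For the 23 V-ATPase genes it gave 39.7%, 5.59% and 54.7%, unlike the core, and 7 of the 23 were listed at 0 in every cell. The division was thus not alike in all complexes.

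**Figure D2:**
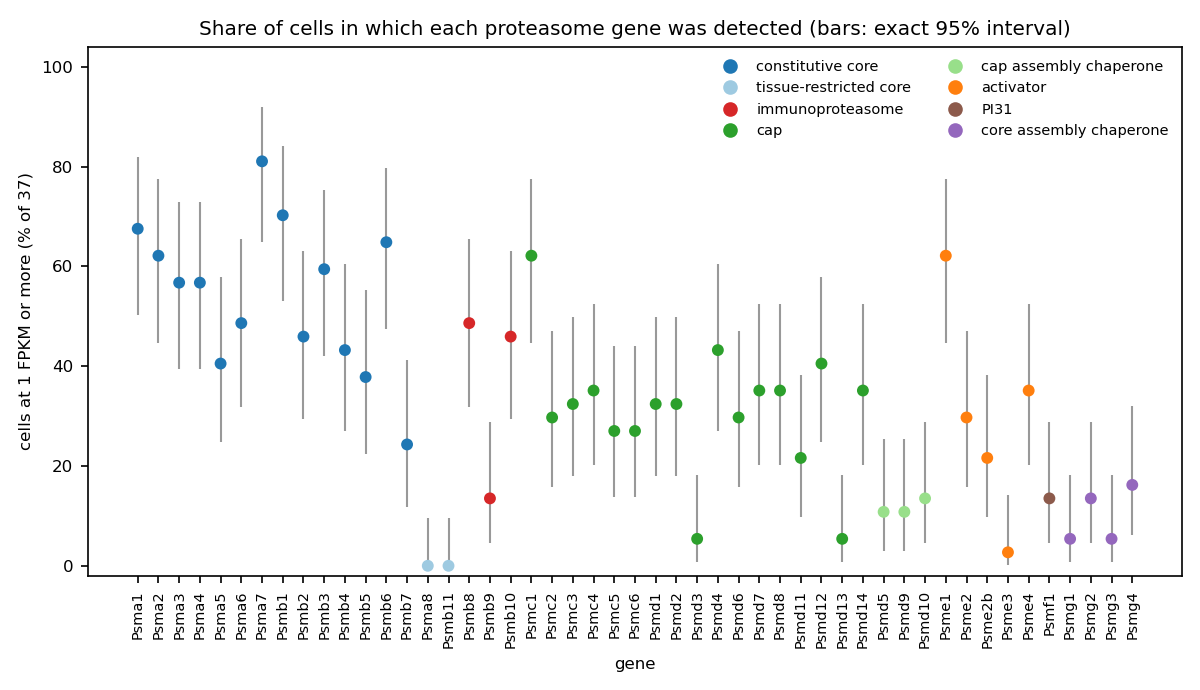
Share of the 37 cells in which each of the 49 proteasome genes was at 1 FPKM or more, by class; bars are exact 95% intervals and cover the sampling of cells only. Core genes lie between 24.3% and 81.1%, and cap genes between 5.41% and 62.2%.

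The 3 constitutive cutting subunits were detected unequally. Psmb6, the beta 1 subunit with caspase-like activity, was detected in 24 cells (64.9%, 47.5% to 79.8%), with a lowest value of 0, a median of 10.5 FPKM and a highest of 1672 FPKM in cell 32. Psmb5, the beta 5 subunit with chymotrypsin-like activity and the main target of the drug bortezomib, was detected in 14 cells (37.8%, 22.5% to 55.2%). Its median was 0.220 FPKM and its highest value 475 FPKM, in cell 28. Psmb7, the beta 2 subunit with trypsin-like activity, was detected in 9 cells (24.3%, 11.8% to 41.2%), was listed at 0 in 24, and reached 429 FPKM in cell 18. Psmb7 was thus the least detected of the 14 core genes. It was picked as such from these values, so its interval makes no test against Psmb6.

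The immunoproteasome subunits showed the same unevenness with the places exchanged. Psmb8, which replaces Psmb5, was detected in 18 cells (48.6%, 31.9% to 65.6%), with a median of 0.695 FPKM and a highest value of 1073 FPKM in cell 32. Psmb10, which replaces Psmb7, was detected in 17 cells (45.9%, 29.5% to 63.1%), with a median of 0.790 FPKM and a highest value of 2882 FPKM in cell 26, well above the second at 416 FPKM in cell 25. Psmb9, which replaces Psmb6, was detected in only 5 cells (13.5%, 4.54% to 28.8%) and listed at 0 in 29. The 5 values were 1129 FPKM in cell 29, 180 FPKM in cell 9, and 1.57, 1.17 and 1.04 FPKM in cells 15, 10 and 30, so clear expression of Psmb9 rested on cells 29 and 9.

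Set against each other in each cell, the replacing pairs differed in direction. Psmb8 was higher than Psmb5 in 15 cells and lower in 9, counting the cells in which at least 1 of them was detected; both were detected in 8 cells, Psmb8 alone in 10 and Psmb5 alone in 6. Psmb10 was higher than Psmb7 in 15 cells and lower in 6, with both in 5 cells, Psmb10 alone in 12 and Psmb7 alone in 4. Psmb9 was higher than Psmb6 in 4 cells (9, 15, 29 and 30) and lower in 24, with a median difference of log2(FPKM + 1), Psmb9 minus Psmb6, of -3.52. The median differences of the other pairs were 0 for Psmb8 minus Psmb5 and 0.25 for Psmb10 minus Psmb7. As shares of cells with either gene detected, Psmb9 was the higher in 14.3% (exact 95% interval 4.03% to 32.7%), Psmb8 in 62.5% (40.6% to 81.2%) and Psmb10 in 71.4% (47.8% to 88.7%). The constitutive gene was thus mostly the higher at the beta 1 place, while the intervals of the other places include 50%, and in cells 0 to 19 Psmb8 was the higher in 50%. Reads may be shared with other genes: 74.7% of the 30-base words of the Psmb5 transcript, 33.9% for Psmb7, 16.4% for Psmb6 and 13.8% for Psmb9 also occur in transcripts of other genes, against 8.26% for Psmb8 and 0% for Psmb10.

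**Figure D3:**
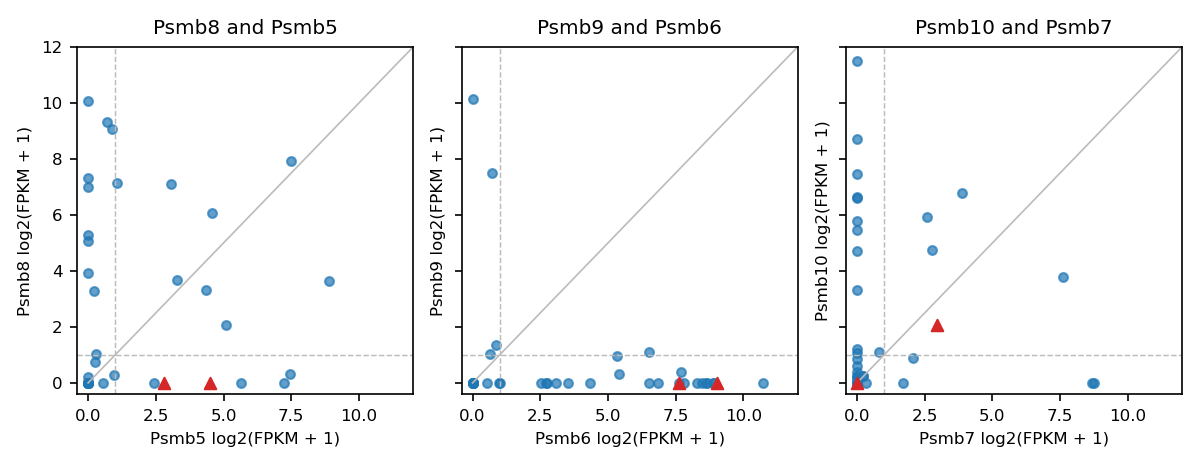
Each immunoproteasome gene (vertical axis) against the constitutive gene it replaces (horizontal axis), as log2(FPKM + 1) in each of the 37 cells; red triangles are cells 7 and 27, dashed lines mark 1 FPKM and the diagonal marks equal levels. Points gather along the axes: both genes were detected together in 8, 1 and 5 cells for the Psmb8, Psmb9 and Psmb10 panels.

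Taken as sums, the 3 immunoproteasome genes exceeded the 3 constitutive cutting genes in 15 of the 34 cells with any of the 6 detected, and the constitutive sum was higher in 19. Cells 8, 12 and 31 detected none of the 6. The immunoproteasome share of the FPKM sum of the 6 genes had a median of 31.2%. It was over 90% in 9 cells (0, 9, 11, 15, 19, 26, 29, 33 and 35), under 10% in 11 and in between in 14, so both extremes were populated. All 3 immunoproteasome genes were detected only in cells 9 and 15, and none in 10 cells. All 3 constitutive cutting genes were detected in cells 7, 14, 28 and 36 and none in 7 cells, and no cell detected all 6. In cell 9 the values of Psmb8, Psmb9 and Psmb10 were 142, 180 and 98.1 FPKM beside 1.08, 0.662 and 0 FPKM for Psmb5, Psmb6 and Psmb7, and only 3 of its 14 core genes were detected. In cells 5, 14, 17 and 27 the share was 0%. Cell 36, at 31% near the median share, had both kinds present, at 243 FPKM for Psmb8 and 12.7 FPKM for Psmb10 beside 180, 194 and 194 FPKM for Psmb5, Psmb6 and Psmb7.

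The immunoproteasome genes were also not detected as a set. Psmb8 and Psmb10 were found together in 10 cells, Psmb8 and Psmb9 in 3, and Psmb9 and Psmb10 in 2. The fibroblast gene carriers, cells 7 and 27, were listed at 0 for Psmb8 and Psmb9, and Psmb10 stood at 3.24 FPKM in cell 7 and at 0 in cell 27, while Psmb6 stood at 198 and 514 FPKM. Leaving out these cells, the count of cells with Psmb8 or Psmb9 is therefore the same, and that with Psmb10 is 16 of 35.

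For the pairs Psmb8 with Psmb5 and Psmb9 with Psmb6, the 250 bases before each start are given, from RefSeq on the mouse build GRCm38.p6. They are written in the direction of transcription and in lower case, with matches to the motifs searched in capitals. Psmb5 lies at chr14:54617996-54618245 on the minus strand, Psmb6 at chr11:70525107-70525356 on the plus strand, Psmb8 at chr17:34197945-34198194 on the plus strand and Psmb9 at chr17:34187331-34187580 on the minus strand.
Psmb5: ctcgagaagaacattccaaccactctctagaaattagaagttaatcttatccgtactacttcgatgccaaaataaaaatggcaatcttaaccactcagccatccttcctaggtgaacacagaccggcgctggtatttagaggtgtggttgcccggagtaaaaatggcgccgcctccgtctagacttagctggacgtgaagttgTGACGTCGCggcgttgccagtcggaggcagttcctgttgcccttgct
Psmb6: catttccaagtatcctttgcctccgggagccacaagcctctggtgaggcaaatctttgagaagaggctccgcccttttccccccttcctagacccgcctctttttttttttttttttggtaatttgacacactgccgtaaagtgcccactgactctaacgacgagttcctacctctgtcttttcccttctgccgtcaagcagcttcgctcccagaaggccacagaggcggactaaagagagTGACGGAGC
Psmb8: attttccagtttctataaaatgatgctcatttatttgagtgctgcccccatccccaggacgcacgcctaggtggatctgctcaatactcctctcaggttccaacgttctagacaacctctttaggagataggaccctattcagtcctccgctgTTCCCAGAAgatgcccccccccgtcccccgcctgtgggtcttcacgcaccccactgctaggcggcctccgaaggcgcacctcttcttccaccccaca
Psmb9: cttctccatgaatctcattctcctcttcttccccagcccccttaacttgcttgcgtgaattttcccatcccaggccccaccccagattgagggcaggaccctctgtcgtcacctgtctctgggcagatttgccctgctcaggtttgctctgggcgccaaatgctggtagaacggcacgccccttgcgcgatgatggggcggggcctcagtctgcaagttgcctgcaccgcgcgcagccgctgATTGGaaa

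The motifs, searched on both strands over the 250 bases before and 50 after a start, were TGACNNNGC (core of the antioxidant response element, to which the transcription factors Nfe2l1 and Nfe2l2 bind), CCAAT (the box bound by NF-Y), the interferon regulatory factor element and TTCNNNGAA (the gamma-activated site). Matches of different motifs may overlap in part. The windows of Psmb5 and Psmb6 each hold TGACNNNGC, with its first base at position -47 and -9 from the start. The Psmb8 window holds TTCNNNGAA at -97, and the Psmb9 window holds CCAAT on the opposite strand at -8. The bases after the RefSeq start of Psmb6 were not found in the GENCODE transcripts of that gene, so its start is less certain. Psmb9 and Tap1, the peptide transporter gene, start 225 bases apart on opposite strands, so part of the printed Psmb9 sequence belongs to Tap1.

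Across the 44 windows of the 41 proteasome genes with an entry, TGACNNNGC was in 13.6% against 12.4% of all 32851 windows, CCAAT in 31.8% against 37.4%, the interferon regulatory factor element in 11.4% against 3.44% and TTCNNNGAA in 6.82% against 8.30%. In the core, 6 of 12 windows held CCAAT. The interferon regulatory factor element was in 5 of the 44 windows, those of Psmb3, Psmd4, Psmd9, Psme1 and Psmg4. None of the 3 immunoproteasome windows held it. These matches describe letters in the window, and no binding was measured. No entry was matched for Psma8, Psmb1, Psmb2, Psmb7, Psmc3, Psmd3, Psmd7 and Psmg2.

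The cap was detected less completely than the core. Of its 17 genes, 1 (5.88%) was widely detected, a share between the 4.03% of all genes and the 8.33% of those above 0 in any cell. Of the 629 cap values, 31.2% reached 1 FPKM. Over the 15 cap genes detected in at least 5 cells the share was 34.6%, beside the 34.7% of all genes so detected. The share was 35.6% for the 6 ATPases, which form the ring that unfolds substrates, 36% for the other base subunits Psmd1, Psmd2 and Psmd4, and 26% for the lid, which holds the deubiquitinase. Psmc1 (Rpt2) stood out among the ATPases, with detection in 23 cells (62.2%, 44.8% to 77.5%), a lowest value of 0, a median of 4.74 FPKM and a highest value of 1195 FPKM in cell 28. The other ATPases, Psmc2 to Psmc6, were detected in 10 to 13 cells each. Of the Psmc1 words, 41.1% occur in other genes' transcripts, against 0% for Psmc2, Psmc4 and Psmc5, and the part of this in the difference was not tested.

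In the base, Psmd4, a ubiquitin receptor, was detected in 16 cells and reached 888 FPKM in cell 29. The scaffold subunits Psmd1 and Psmd2 were detected in 12 cells each. In the lid, Psmd14, the deubiquitinase that removes the ubiquitin chain, was detected in 13 cells and reached 482 FPKM in cell 9. The structural lid subunits Psmd12, Psmd7, Psmd8, Psmd6 and Psmd11 were detected in 15, 13, 13, 11 and 8 cells. Psmd3 and Psmd13, which belong to the same lid, were each detected in 2 cells only (5.41%, 0.661% to 18.2%) and nowhere above 8.97 and 16 FPKM. The lid gene of the pattern detected in the most cells, Psmd12, stood at 40.5% (24.8% to 57.9%). These genes were picked by their counts, so the intervals make no test between them. All 6 ATPases were detected together in cell 6 alone, and none of them in 5 cells.

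Compared within each cell, the mean log2(FPKM + 1) of the 14 core genes exceeded that of the 17 cap genes in 33 of 37 cells. The medians of these means were 2.90 and 1.55, and the median difference, core minus cap, was 1.32. The difference ran from -1.98 in cell 9 to 3.92 in cell 14, and the cap mean was the higher in cells 2, 6, 9 and 29. Core transcripts are shorter, with a median longest coding transcript of 1162.5 against 1819 bases in GENCODE. Over the 31 genes the rho of length with the number of cells detected was -0.40, and it was 0.13 within the core and -0.33 within the cap. Among the 8 core and 12 cap genes of 900 to 2000 bases, 54.1% of core values and 34.2% of cap values were detected. Even there the lengths barely overlapped, since 7 of the 8 core genes had 1042 to 1239 bases and the 12 cap genes 1316 to 1989, so length and class cannot be told apart in these values.

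**Figure D4:**
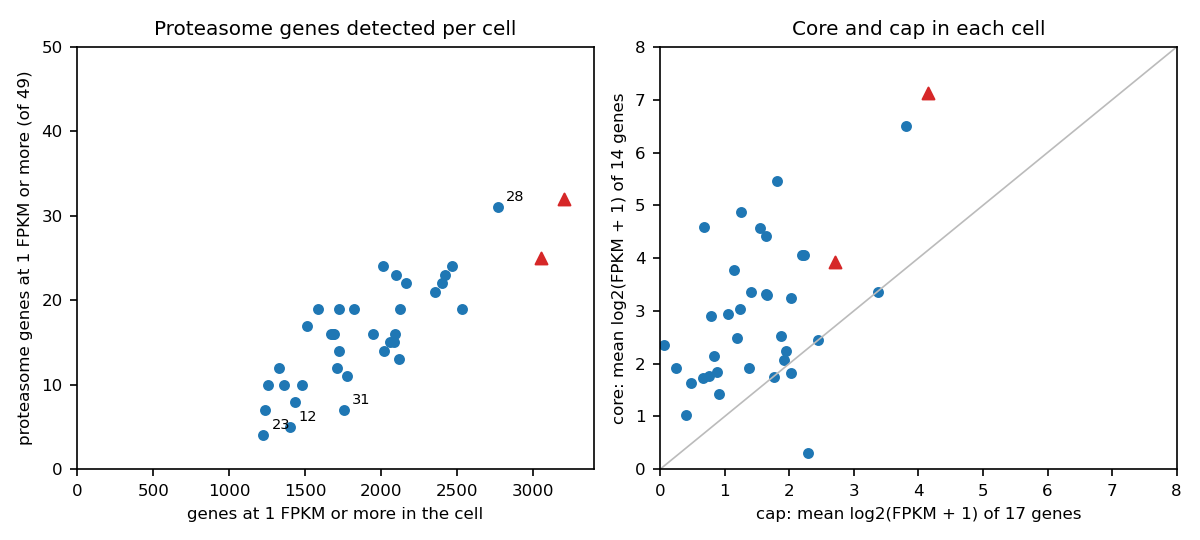
Left, number of the 49 proteasome genes at 1 FPKM or more in each cell (vertical axis) against all genes at 1 FPKM or more in that cell (horizontal axis); right, mean log2(FPKM + 1) of the 14 core genes against that of the 17 cap genes, with the diagonal of equal values. Each point is 1 cell, red triangles are cells 7 and 27, and 33 of 37 cells lie above the diagonal on the right.

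Of the activators, Psme1, the alpha subunit of PA28, was detected in 23 cells (62.2%, 44.8% to 77.5%), with a lowest value of 0, a median of 6.99 FPKM and a highest value of 443 FPKM in cell 2. Psme2, its beta partner in the same interferon-inducible ring, was detected in 11 cells (29.7%, 15.9% to 47.0%), had a median of 0 and reached 1098 FPKM in cell 26. Both were detected in 6 cells, Psme1 alone in 17 and Psme2 alone in 5. Psme1 was thus the higher in 19 of the 28 cells with either (67.9%), with a median difference of log2(FPKM + 1), Psme1 minus Psme2, of 1.80. When both were present the order was not fixed, since Psme2 was higher in 4 of the 6 cells. In cells 0 to 19, Psme1 was higher in 85.7% of the cells with either, and in cells 20 to 36 in 50%. The median differences there were 3.08 and 0.26. Of the Psme2 words, 66.6% also occur in transcripts of other genes, against 22.7% for Psme1. The part of this in the difference was not tested.

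Psme2b, a gene nearly identical to Psme2, was detected in 8 cells and nowhere above 5.06 FPKM, and 76.9% of its words occur in Psme2, so its reads cannot be told apart from those of Psme2 with certainty. It was detected together with Psme2 in 6 of the 8 cells. Psme3, the nuclear PA28 gamma, was detected in 1 cell, cell 26, at 13.2 FPKM. Psme4, the large single-chain activator PA200, was detected in 13 cells and had a median of 0.303 FPKM, with cell 15 at 450 FPKM and cell 27 at 58.1 FPKM as the highest. Psmf1, which encodes the regulator PI31, was detected in 5 cells and reached 114 FPKM in cell 32.

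**Figure D5:**
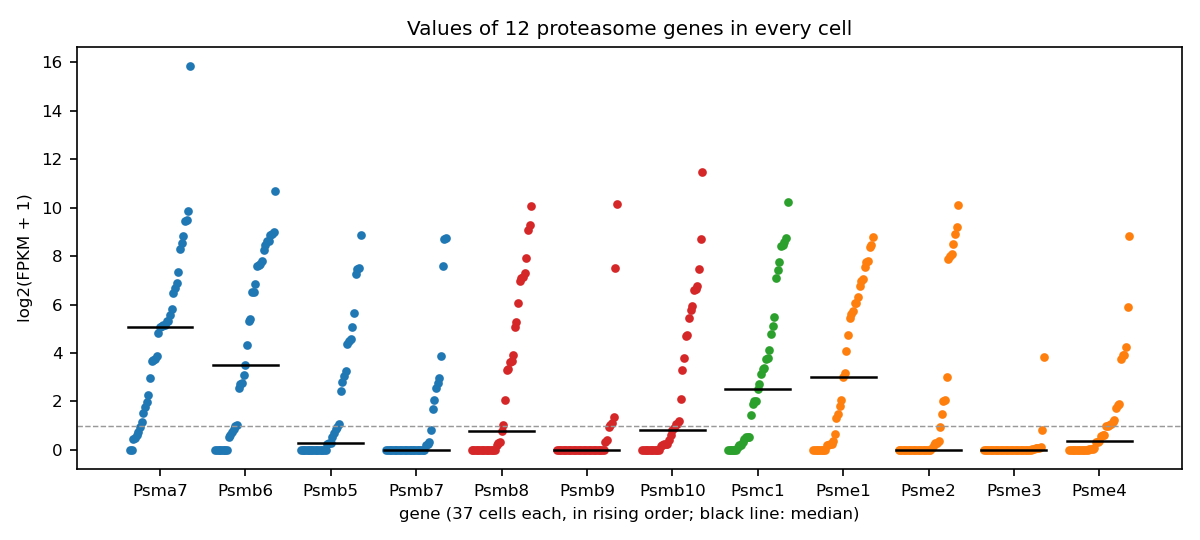
Values of 12 proteasome genes in all 37 cells, as log2(FPKM + 1), with cells in rising order within each gene; black lines are medians and the dashed line marks 1 FPKM. For each gene part of the cells lie at or near 0 and the rest rise steeply, and Psma7 in cell 24 lies above every other point.

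Assembly chaperones were detected in few cells. The core chaperone genes Psmg1, Psmg2, Psmg3 and Psmg4 were detected in 2, 5, 2 and 6 cells, or 10.1% of their values. The cap chaperone genes Psmd5, Psmd9 and Psmd10 were detected in 4, 4 and 5 cells, or 11.7%. Both shares lay between the 8.05% over all genes in the table and the 16.6% over genes above 0 in any cell. Single cells nevertheless held very high values. Psmg2 reached 3922 FPKM in cell 2, Psmg4 2016 FPKM in cell 11, Psmd5 1801 FPKM in cell 15 and Psmd9 1630 FPKM in cell 17, and 1 fragment was worth over 4 times the median in cells 2, 15 and 17. Pomp, the maturation factor that acts after these chaperones and lies outside the pattern, was detected in 29 cells, and its median was 71.4 FPKM.

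Such dependence on 1 cell was common. In the 40 genes detected in at least 5 cells, the highest cell took 16.5% to 93.0% of the gene's FPKM summed over cells, with a median of 35.3%, against a median of 42.1% over all 4694 genes so detected. It took over 50% in 25.0% of the 40 genes and in 36.6% of the 4694. Cell 28 was the highest cell for 6 genes and cell 15 for 5.

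The number of proteasome genes detected varied strongly between cells. Cell 23 had 4 and cell 7 had 32, the median was 16 of 49, and cell 28, with 2769 genes of any kind, followed with 31. Cells 7 and 28 were the only cells with all 14 core genes, and the count of core genes was otherwise as low as 3. The number of proteasome genes moved with the number of all genes detected, at rho 0.79 and r 0.84 over 37 cells (r 0.80 without the 2 cells farthest from the median, rho 0.73 in cells 0 to 19 and 0.85 in cells 20 to 36). For core genes alone rho was 0.64 and r 0.68. Both counts come from the same library, and the part of library quality in them was not tested. The core mean was less closely tied to the number of genes detected (rho 0.42) than the cap mean (rho 0.61), and the immunoproteasome mean had a rho of -0.06. The 49 genes together took 0.133% (cell 12) to 3.30% (cell 24) of a cell's FPKM sum, with a median of 0.552%.

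Proteasome genes varied together only weakly. Over the 780 pairs of the 40 genes detected in at least 5 cells, the mean Spearman rho was 0.09, against 0.03 over all pairs of genes so detected. It was 0.16 within the core, 0.19 within the alpha ring, 0.14 within the beta ring, 0.09 within the cap, 0.10 between core and cap and -0.04 between the core and the immunoproteasome. With the number of genes detected removed, the mean was 0.04 over all pairs and 0.10 within the core. With each gene ranked within its cell, it was 0.033 over the 780 pairs, 0.032 over all genes and 0.09 within the core, so the distance of the proteasome genes as a whole from other genes was not kept. The CCT chaperonin gave 0.11, the lysosomal proton pump V-ATPase 0.08 and MHC class II 0.37, so subunits of other complexes were similarly loose in these data. Only 3 of the 780 pairs reached 0.5, namely Psmb5 with Psmd7 at 0.59, Psmc1 with Psmd2 and Psma4 with Psme4 at 0.51 each. The points of each correlation share their libraries, and correlations this weak in sparse values carry no finding.

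Other genes of the pathway, from a list of 24 of which 23 were in the table, ranged from detected in every cell to listed at 0 in all. The ubiquitin genes Ubb and Rps27a were detected in 37 and 36 cells, with medians of 968 and 327 FPKM. Shfm1, the older symbol of Sem1 and a small subunit of the lid, was found in 36 cells (median 458 FPKM), unlike the lid genes of the pattern. Nfe2l1, the transcription factor that restores proteasome genes when the proteasome is impaired, was detected in 17 cells with a median of 0.226 FPKM, and its relative Nfe2l2 in 30 with one of 40.3 FPKM. The segregase Vcp, which extracts ubiquitinated proteins, was detected in 24 cells. The ubiquitin receptor Adrm1 and the deubiquitinases Usp14 and Uchl5, which dock on the cap, were detected in 6, 4 and 9 cells. In all, 9 of the 23 genes (39.1%) were widely detected, against 4.03% of all genes and 8.33% of those above 0 in any cell.

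The class I antigen presentation genes, which use the peptides of the proteasome, were split as well. B2m and H2-D1 were detected in all 37 cells at medians of 578 and 704 FPKM, Canx in 36, H2-K1 and Calr in 34 and Pdia3 in 25. Of the peptide transporter, Tap1 was detected in 4 cells and nowhere above 6.06 FPKM, and Tap2 was listed at 0 in all 37. The genes Psmb8, Psmb9, Tap1 and Tap2 lie together in the MHC class II region. Psmb9 and Tap1, whose starts are adjacent, were never detected in the same cell, with 5 and 4 cells respectively, which at these numbers is a description only.

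Genes of the interferon response were rarely detected. None of 13 reached 1 FPKM in 5 cells or more, against 19.6% of all genes. In at least 1 cell 7 of the 13 did, a larger share than the 41.7% of all genes, but none in more than 3 cells. Of their values 2.49% reached 1 FPKM, against 8.05% over all genes. Exact zeros, which can be failed estimates, made up 93.6% of their values, against 84.8% over all genes. Of interferon-gamma signalling, the receptor genes Ifngr1 and Ifngr2 were detected in 28 and 19 cells and the kinase gene Jak1 in 28. The transcription factor gene Irf1 was detected in 17 cells with a median of 0.543 FPKM, and its highest values were 3431 FPKM (cell 15) and 3007 FPKM (cell 2). Nlrc5, the class I transactivator, was detected in 1 cell. The mean of the 3 immunoproteasome genes had a rho of -0.02 with that of class I presentation, 0.18 with that of the interferon response, -0.17 with that of interferon-gamma signalling and -0.03 with that of MHC class II. These values were not stable: with interferon-gamma signalling rho was 0.13 in cells 0 to 19 and -0.45 in cells 20 to 36, and each of the 4 changed sign under at least 1 alternative.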

How the data were processed

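Polyadenylated RNA of 37 single cells was measured. The deposited values, made by the authors, are FPKM per gene and cell for 23947 genes. The submitters' processing notes name the aligner STAR, the mouse build mm9 and Cuffnorm. Their versions, the annotation, the strand setting and the fragment counts were not given in the sources used here. FPKM were used as deposited, or as log2(FPKM + 1). An exact 0 can be a failed estimate, so a gene is described as listed at 0.

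The members and lists were chosen with earlier results of these data known. All members were accounted for. Values are given for those detected at 1 FPKM in at least 19 cells, the 6 cutting subunits and the activators; of the other pathway genes, those in at least 30 cells and the regulators were named by rule, and the rest after their values were seen. Intervals of shares are exact 95% Clopper-Pearson intervals and leave out differences between animals. The group is 1 sample, so no p-value was computed. The worth of 1 fragment was estimated from pairs of cells (666 pairs, 529 kept). The estimate used the modal ratio of their low values, 0.005 to 1 FPKM. The procedure was tested only on simulated whole counts with a fixed length per gene, so its error on the deposited values is not known. Cells 0 to 19 and 20 to 36 are putative library parts, not in the labels. Transcript lengths and shared 30-base words come from GENCODE M21, promoters from RefSeq. In 38 of 45 windows the bases after the start were found in the gene's GENCODE transcripts. Proteins were not used here, and some genes of the lists are not reported here. Doublets were not called, because callers need counts. Python 3.11.15, numpy 2.4.6, pandas 2.3.3 and scipy 1.17.1 were used.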

Additional observations from a re-analysis of the deposited data

How the results depend on the processing

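The number of widely detected proteasome genes, 10 at 1 FPKM, was 26 at 0.1 FPKM, 6 at 5 FPKM and 30 when any value above 0 counted, the last chosen after seeing the data. Core genes numbered 13, 5 and 13 under these limits in place of 8, and cap genes 9, 0 and 13 in place of 1. No share over all genes was computed at the limits other than 1 FPKM. The share of cells with Psme1 above Psme2, 67.9%, was 85.7% in cells 0 to 19. The rho of the core mean with the number of genes detected, 0.42, was 0.16 without the 7 cells with the fewest genes, 0.18 in cells 0 to 19 and 0.66 in cells 20 to 36. That of the immunoproteasome with class I presentation, -0.02, was -0.25 in cells 0 to 19. With the interferon response it was -0.032 in cells 20 to 36, in place of 0.18. With interferon-gamma signalling, -0.17, it was 0.016 without the 7 cells with the fewest genes, 0.13 in cells 0 to 19 and -0.45 in cells 20 to 36. Over the alternatives, the rho of the immunoproteasome mean ran from -0.25 to 0.048 with class I presentation, from -0.15 to 0.064 with MHC class II and from -0.12 to 0.033 with the number of genes detected, so these also changed sign. The median difference Psme1 minus Psme2 ran from 0.26 to 3.48, that of Psmb9 minus Psmb6 from -6.53 to -2.63 and the mean rho of the proteasome genes from 0.033 to 0.13. The cause was not tested in any of these.

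The core mean was above the cap mean in 81.1% to 94.6% of cells in each of 10 alternatives. Of the cells with any of the 6 cutting genes detected, the immunoproteasome sum was above the constitutive sum in 39.3% to 46.9% in each of 11. Among these 11, rescaled FPKM, another pseudocount and other detection limits could not change which sum was higher in a cell. At most they changed which cells were counted. Leaving out cell 24 or the 6 cells of high fragment worth, the genes of like length, the share of detected genes per class and the ranks within cells were also added after seeing the data. No paired analysis was possible because there is 1 group and no test.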
